A study of Mus musculus with 2 samples.

Results

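The genes described here were *Nf1*, 4 other genes for Ras GTPase-activating proteins (*Rasa1*, *Rasa2*, *Rasa3*, *Rasal2*), the gene of a neurofibromin partner (*Spred1*), 2 Ras genes (*Hras*, *Nras*) and a Ras exchange factor gene (*Sos1*). They were taken by symbol from spatial count tables, which held all 9 of them among 19430 named genes. The tables came from the fracture callus, the repair tissue around a broken bone, of the distal tibia of mice, in which the break was held by a pin inside the marrow cavity. The control mouse was *Nf1*[+/flox], with 1 floxed and 1 normal copy of *Nf1* and without Cre, and was a littermate of the mutant. The *Nf1*Postn mouse was *Postn*-cre;*Nf1*[flox/-], so that every cell carried 1 null copy of *Nf1* and the floxed copy was deleted where the *Postn* promoter had driven Cre, which includes the periosteum. Both were female, 8 weeks old by the deposited design, and the calluses were taken at 10 days after fracture. The tissue had been formalin-fixed and kept in 14% EDTA for 3 days to remove mineral.

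Both calluses were embedded in 1 block, of which 2 sections were measured on the Visium platform. There pairs of gene-specific probes hybridize to fixed tissue, and each unique molecular identifier (UMI) counts 1 captured probe pair at a known spot. A spot can hold several cells. The sample titles number the sections as biological replicates, but each section held the same 2 calluses, so there was 1 mouse per genotype. No test between genotypes was possible, and the intervals given below are 95% intervals that cover counting error only, not the spread between mice. The control callus gave 3478 spots and 25684672 UMIs, and the *Nf1*Postn callus 2897 spots and 9446382 UMIs, with median depths per spot of 6370 and 2642 UMIs. Values are given as CPM, the UMIs of a gene scaled to 1000000 UMIs of the same spots. In such sums over spots, fewer cells of a type and less RNA per cell cannot be told apart.

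Ras proteins are small GTPases that signal to the RAF-MEK-ERK cascade while bound to GTP. Exchange factors such as SOS1 load them with GTP, and GTPase-activating proteins (GAPs) such as neurofibromin, the product of *Nf1*, end the signal by speeding GTP hydrolysis. SPRED1 binds neurofibromin and brings it to the plasma membrane. Loss of *NF1* in people causes neurofibromatosis, in which fractures of the tibia can fail to unite (pseudarthrosis).

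On the mm39 build, *Nf1* lies on the plus strand of chromosome 11 (start 79230519, end 79472438) and *Spred1* on the plus strand of chromosome 2 (start 116951855, end 117012760). These and the next 3 are the genes with the most UMIs of the 9. *Rasa3* lies on the minus strand of chromosome 8 (start 13616948, end 13727603). *Hras* lies on the minus strand of chromosome 7 (start 140769018, end 140773918) and *Nras* on the plus strand of chromosome 3 (start 102965601, end 102975230). All 9 spans overlapped the protein-coding gene of the same Ensembl identifier in the GENCODE annotation. Where the *Nf1* probes lie relative to the floxed exons is not given in the sources used here, so the *Nf1* level is a level of probe signal and does not check the deletion.

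*Nf1* was lower in the *Nf1*Postn callus in each section. It measured 87.8 CPM in control and 65.6 CPM in *Nf1*Postn in section 1, and 79.0 and 49.6 CPM in section 2. The values of the 2 genotypes did not overlap. Pooled over the sections, 2149 control and 524 *Nf1*Postn UMIs gave a log2 ratio of *Nf1*Postn over control of -0.59 (interval -0.73 to -0.45), a 1.51-fold lower level, with -0.42 in section 1 and -0.67 in section 2. Among the 11851 genes with enough counts to compare, whose median ratio was -0.09, 12.97% lay below *Nf1*.

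Of the other GAP genes, *Rasa3*, whose product acts on Ras and on the related GTPase Rap1, had the lowest ratio. It measured 183 and 178 CPM in the control sections and 125 and 102 CPM in the *Nf1*Postn sections, with no overlap. Its pooled log2 ratio was -0.71 (-0.81 to -0.62), with -0.55 and -0.81 in the 2 sections. *Rasal2* measured 22.05 and 21.5 CPM in control and 17.3 and 15.7 CPM in *Nf1*Postn, a log2 ratio of -0.42 (-0.69 to -0.16). These 2 genes thus lay on the same side as *Nf1* in each section.

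The remaining 2 GAP genes did not. *Rasa1*, whose product binds activated growth factor receptors, measured 16.6 and 20.6 CPM in control and 19.6 and 15.04 CPM in *Nf1*Postn, so the sections ran opposite ways (0.24 and -0.46, pooled -0.14, -0.41 to 0.12). *Rasa2* measured 23.4 and 23.1 CPM in control and 27.7 and 21.7 CPM in *Nf1*Postn, again in opposite directions (0.25 and -0.09, pooled 0.04, -0.19 to 0.26). The median ratio of all genes also differed between the sections, at 0.06 and -0.21.

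*Spred1* lay on the side of *Nf1*. It measured 116 and 111 CPM in the control sections and 97.0 and 69.3 CPM in the *Nf1*Postn sections. Its pooled log2 ratio was -0.52 (-0.63 to -0.40), but the size differed between the sections, from -0.26 in section 1 to -0.67 in section 2.

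The 2 Ras genes went opposite ways. *Hras* was higher in *Nf1*Postn in each section, at 104 and 134 CPM against 87.5 and 94.5 CPM in control, with a pooled log2 ratio of 0.43 (0.33 to 0.54). *Nras* was lower, at 82.9 and 80.0 CPM against 99.7 and 95.2 CPM, with a log2 ratio of -0.27 (-0.39 to -0.15). *Sos1*, the exchange factor, measured 20.2 and 21.1 CPM in *Nf1*Postn and 14.7 and 18.4 CPM in control, a log2 ratio of 0.34 (0.08 to 0.58). For each of these 3 genes the 2 genotypes did not overlap. In all, 5 of the 9 genes were lower in both *Nf1*Postn sections than in both control sections and 2 were higher, beside 35.9% and 26.7% of the 11851 genes.

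**Figure D1:**
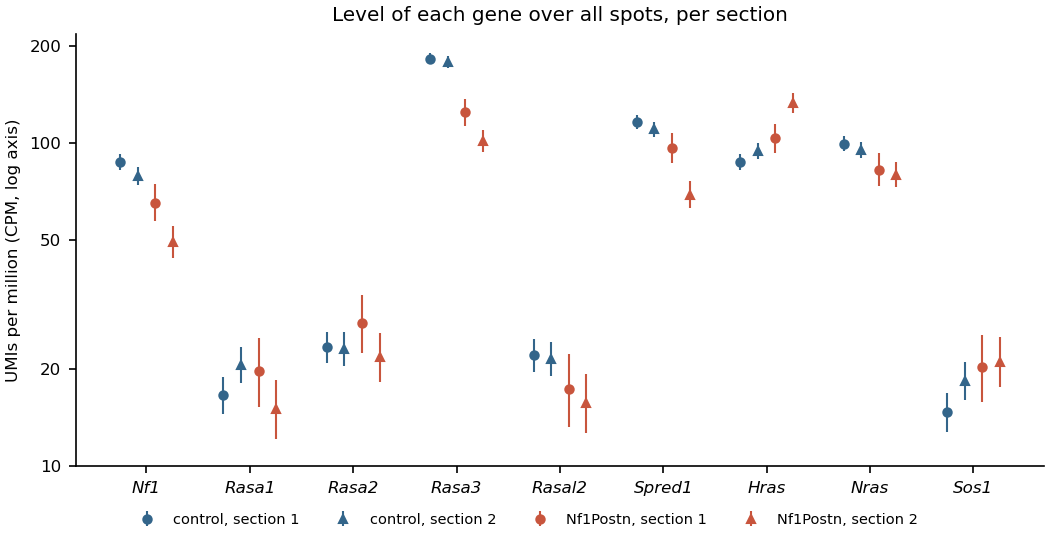
Level of the 9 genes over all spots of each genotype in each section, in CPM on a log axis, with 95% counting intervals. *Nf1*, *Rasa3*, *Rasal2*, *Spred1* and *Nras* sit lower in both *Nf1*Postn sections than in both control sections, *Hras* and *Sos1* sit higher, and the sections of *Rasa1* and *Rasa2* overlap.

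With 1 mouse per genotype, a gene was counted as past the fold when it differed by at least 1.5-fold the same way in each section. Over all spots, 6.37% of the 11851 genes were lower in *Nf1*Postn by this rule and 8.2% were higher. None of the 9 genes was among them, since *Nf1* (-0.42) and *Rasa3* (-0.55) missed 1.5-fold in section 1. The counting interval lay below 0 for 5 genes (*Nf1*, *Rasa3*, *Rasal2*, *Spred1* and *Nras*) and above 0 for 2 (*Hras* and *Sos1*), beside 38.6% and 24.3% of all genes. The median log2 ratio of the 9 genes was -0.27, and 6 of 9 were below 0, beside 58.6% of all genes.

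These values depended on the scaling. With trimmed mean of M values (TMM) factors in place of total UMIs, the median of all genes moved from -0.09 to -0.21, the ratios of *Nf1* and *Rasa3* became -0.71 and -0.83, and both passed 1.5-fold in each section. *Rasa2* then lay at -0.08 in place of 0.04. Under these factors the split of all genes past the fold moved from 755 lower and 972 higher to 1504 lower and 712 higher. The mean of log2(CPM + 1) over spots put *Hras* and *Sos1* below 0, at -0.73 and -0.30. Section 2 had the larger ratio for *Nf1*, *Rasa3* and *Spred1*, and in that section alone these 3 genes passed 1.5-fold. So did 2585 of the 11851 genes on the lower side and 1305 on the higher side, with a median of -0.21.

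The calluses also differed in makeup. The 10 cartilage markers together were 11.3-fold and 3.58-fold higher in control than in *Nf1*Postn in sections 1 and 2, and the 6 osteoclast markers 2.12-fold and 3.97-fold. The 7 mature muscle markers were 4.70-fold and 5.05-fold higher in *Nf1*Postn, and all 7 were higher there in each section. The 3 erythroid markers were 11.2-fold and 5.62-fold and the 4 regenerating muscle markers 7.13-fold and 2.09-fold higher in *Nf1*Postn, and the 7 bone markers 1.86-fold and 2.81-fold higher in control. None of these markers was at 0 in either callus, and the 5 fibrous stroma markers differed by 1.21-fold (higher in *Nf1*Postn) in section 1 and 1.37-fold (higher in control) in section 2. Beyond the comparison within regions given next, the part of these differences in the ratios was not tested.

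The genes were therefore also compared within regions, which were clusters of spots found without the 9 genes, the other Ras pathway genes and *Postn*. There were 12 such regions, and 11 of them held at least 20 spots of each genotype. Those with most control spots were region 1, led by *Fbn2*, *Sfrp2*, *Ddah1*, *C1qtnf3* and *Capn6* (728 control and 67 *Nf1*Postn spots), region 3, led by the osteoclast genes *Acp5*, *Siglec15*, *Ocstamp* and *Mmp9* with *Rufy4* (730 and 25), and region 6, led by *Meltf*, *Clec3a*, *Col10a1*, *Ihh* and *Snorc*, with 6 cartilage markers among its top 10 genes (497 and 28). Those with most *Nf1*Postn spots were region 2, led by *Myh7*, *Dusp13*, *Ckmt2*, *Tuba8* and *Myot* (115 and 651), and region 5, led by *Hbb-bs*, *Retnla*, *Hbb-bt*, *Kcna7* and *Chrne* (61 and 542). Region 10, led by the globin genes *Hbb-bt*, *Hbb-bs* and *Hba-a2* with *Dmtn* and *Camp* (35 and 340), was the shallowest.

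The other compared regions were region 4, led by the osteocyte and osteoblast genes *Mepe* and *Bglap* with *Hbb-bs*, *Hba-a2* and *Sost* (297 control and 351 *Nf1*Postn spots), region 7, led by *Mmp3*, *Il1rn*, *Zbp1*, *Rgs16* and *Kif26b* (393 and 106), and region 8, led by *Cfd*, *Cxcl14*, *Gap43*, *Lgi4* and *Il33* (226 and 208). Region 9 was led by *Angptl7*, *Cilp2*, *Myoc*, *Mepe* and *Chad* (223 and 208), and region 11 by the embryonic muscle genes *Tnnt2*, *Myh3*, *Myh8* and *Myl4* with *Tceal7* (172 and 176). Region 12, led by *2310002L09Rik*, *Padi2*, *Perm1*, *Ucp3* and *Wnk2*, had 1 control spot and 195 *Nf1*Postn spots and was not compared.

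**Figure D2:**
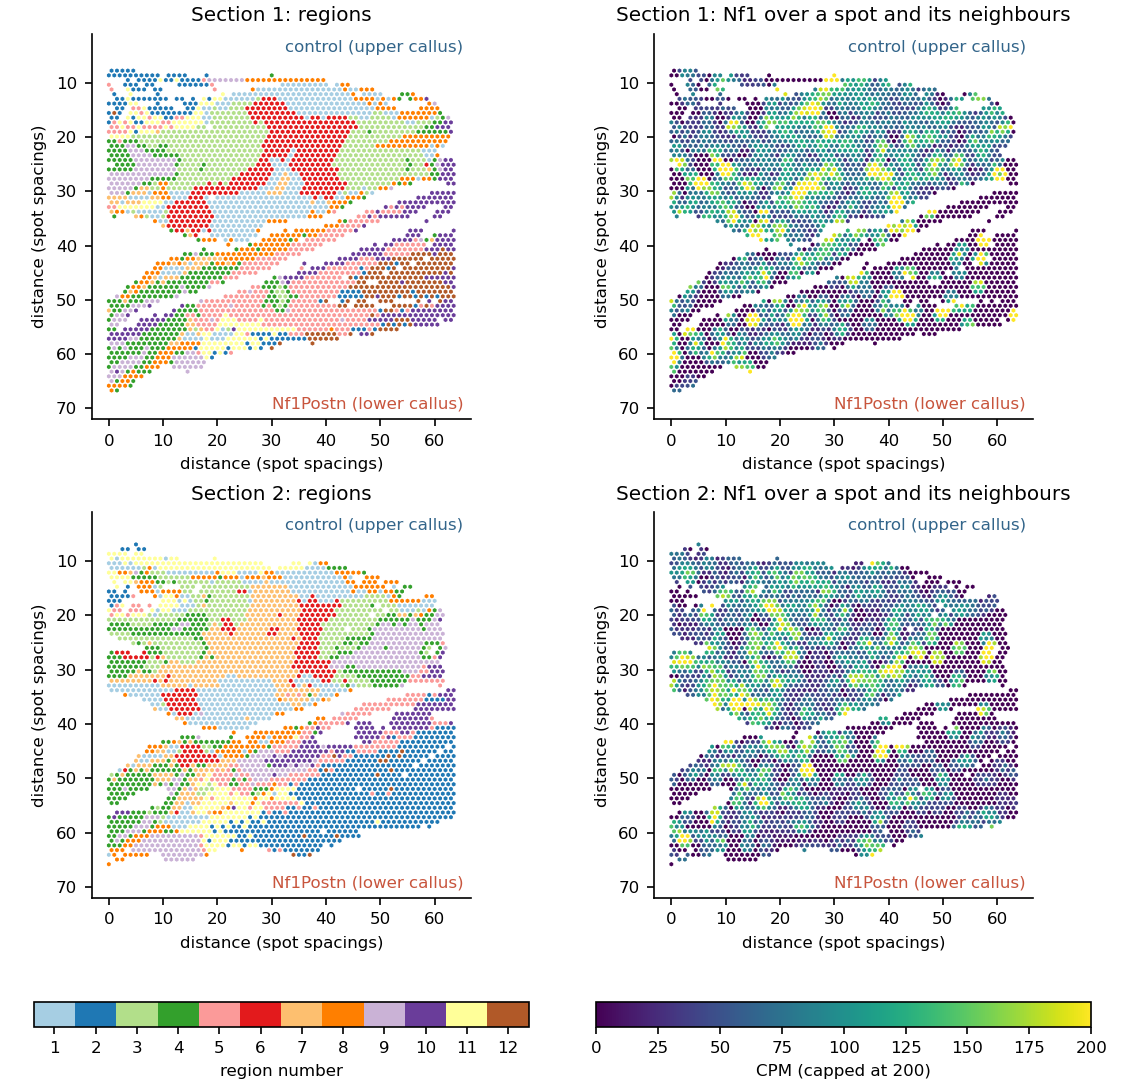
Spots of both calluses in section 1 (top) and section 2 (bottom), with axes in spot spacings. The left maps color the 12 regions, and the right maps show *Nf1* CPM over a spot and its neighboring spots of the same genotype, capped at 200. Regions 1, 3 and 6 fill much of the control callus, and region 5 is common in the *Nf1*Postn callus of both sections. There region 2 lies mainly in section 2 (56 and 595 spots by section) and region 12 mainly in section 1 (181 and 14). *Nf1* signal is patchy and sparsest in the *Nf1*Postn spots of regions 2, 10 and 12.

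*Nf1* was detected in all 11 compared regions of both genotypes. In control, its level ran from 99.4 CPM in the cartilage-gene region 6 through 87.0 CPM in the osteoclast-gene region 3, 84.9 CPM in region 1 and 80.6, 80.5 and 79.4 CPM in regions 4, 8 and 7 to 64.1 CPM in the embryonic muscle region 11 and 33.2 CPM in the *Myh7* region 2. Regions 5 and 9 lay at 72.3 and 58.2 CPM on 12 and 14 UMIs, and region 10 at 115 CPM on 2 UMIs. No neighbors in the order of all 11 regions differed beyond their counting interval. With regions 5, 9 and 10, which had fewer than 15 control UMIs, left out of the order, region 2 lay below its neighbor, region 11, by more than that interval (log2 ratio -0.95, -1.77 to -0.21), and the other neighbors did not differ beyond it. That cut was set after the values had been seen, and region 2 had 18 control UMIs, 17 of them in section 1.

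In *Nf1*Postn the level was 93.0 CPM in region 7, 83.0 CPM in region 8, 76.0 CPM in region 4, 69.1 CPM in region 3, 65.5 CPM in region 1, 60.3 CPM in region 11, 50.5 CPM in region 5 and 33.5 CPM in region 2. Regions 6, 9 and 10 gave 49.98, 47.2 and 38.9 CPM on 8, 14 and 10 UMIs. The lowest value of the compared regions was that of region 2 in both genotypes. In region 12, which was not compared, 10 UMIs gave 29.5 CPM.

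Set side by side, *Nf1* was lower in *Nf1*Postn in 8 of 11 regions, but no interval excluded 0. In region 1 the level was 86.7 and 82.8 CPM in the control sections and 74.3 and 59.6 CPM in the *Nf1*Postn sections, a pooled log2 ratio of -0.37 (-0.84 to 0.05). In region 4 it was 83.4 and 79.3 CPM against 75.8 and 76.3 CPM, a log2 ratio of -0.08 (-0.58 to 0.41). In region 6 the ratio was -0.99 (-2.22 to 0.01) on 278 control and 8 *Nf1*Postn UMIs, all 8 of them in section 2, as section 1 held no *Nf1*Postn spot of that region.

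Pooled over the sections, *Nf1* was level or higher in *Nf1*Postn in 3 regions. These were region 7 (log2 ratio 0.23, -0.29 to 0.72), region 8 (0.04, -0.39 to 0.48) and the *Myh7* region 2 (0.01, -0.73 to 0.83). By section they measured -0.20 and 0.27, -0.19 and 0.49, and -0.21 and 1.31. Each was thus below 0 in section 1 and above 0 in section 2. Region 2 held 98 and 17 control spots and 56 and 595 *Nf1*Postn spots by section, with 1 control *Nf1* UMI in section 2. Of the 9 regions that could be followed in both sections, *Nf1* was lower in both sections in 4, higher in both in 0 and opposite in 5.

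**Figure D3:**
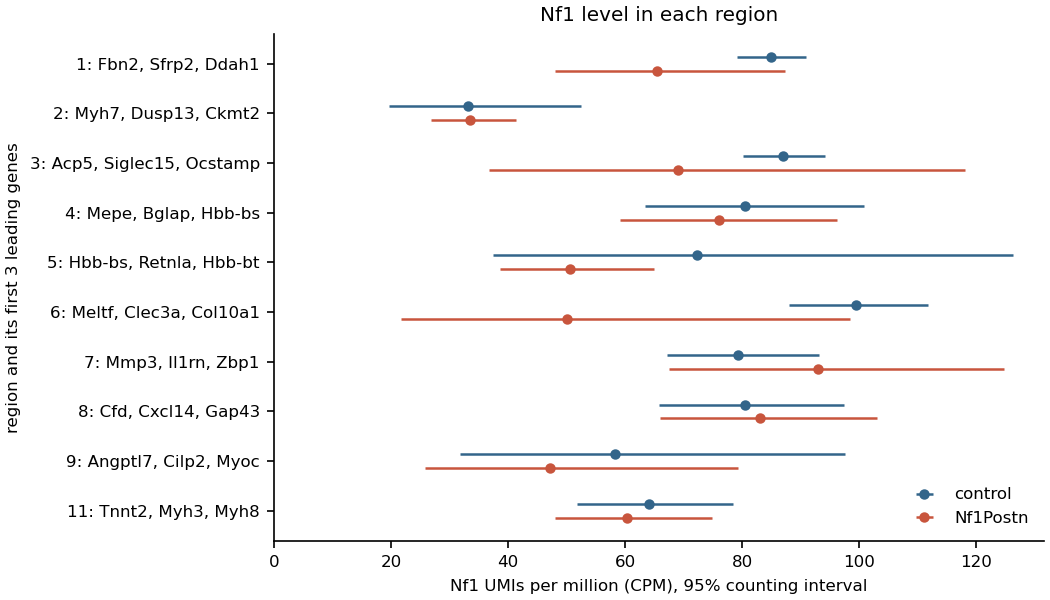
*Nf1* CPM in each compared region of both calluses, with 95% counting intervals, for the 10 regions with at least 5 *Nf1* UMIs in each genotype. The intervals of the genotypes overlap in every region shown, and both genotypes are lowest in region 2, led by *Myh7*, *Dusp13* and *Ckmt2*.

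The ratio within regions was a Mantel-Haenszel rate ratio over 20 strata of section and region, each with at least 10 spots of both genotypes. These strata held 76.0% of UMIs in control and 95.6% in *Nf1*Postn. Among those left out were section 1 of the osteoclast-gene region 3 (434 control and 9 *Nf1*Postn spots) and of the cartilage-gene region 6 (339 and 0). Most control spots of these regions were thus not in the ratio. For *Nf1* the ratio within regions was -0.14 (-0.32 to 0.05), with -0.21 in section 1 and -0.09 in section 2, beside -0.59 over all spots. Pooled over the sections, regions 1, 3 and 6 gave -0.37, -0.33 and -0.99, and regions 7, 8 and 2 gave 0.23, 0.04 and 0.01. Regions 5, 9 and 10 gave -0.52, -0.30 and -1.57, on 12, 14 and 2 control UMIs, and regions 4 and 11 gave -0.08 and -0.09. All these intervals held 0, and the difference between regions was not tested. The median of all genes within regions was 0.03, and 23.6% of them lay below *Nf1*. Under TMM factors, which moved that median to -0.09, the ratio of *Nf1* was -0.26 with an interval below 0 (-0.44 to -0.08). Relative to the median of all genes it was -0.17 under either scaling.

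Within regions the other genes did not lie on one side. Those that had been lower with *Nf1* over all spots measured -0.01 (*Rasa3*, -0.14 to 0.11), -0.14 (*Rasal2*, -0.46 to 0.19), -0.00 (*Spred1*, -0.15 to 0.15) and 0.17 (*Nras*, 0.02 to 0.33). *Nras* was the only one of the 9 genes whose interval excluded 0, on the other side from its ratio over all spots, with 0.05 in section 1 and 0.25 in section 2. Intervals lay below 0 for 11.2% and above 0 for 15% of all genes. *Hras* measured 0.14 (-0.01 to 0.28).

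The last 3 genes also lay above 0 within regions, namely *Rasa1* at 0.13 (-0.19 to 0.45), *Rasa2* at 0.30 (-0.01 to 0.61) and *Sos1* at 0.27 (-0.07 to 0.62). By the rule of 1.5-fold in each section, 1.49% of all genes were lower within regions and 1.65% higher, and 0 of the 9 genes were. The median of the 9 genes was 0.13, and 4 of 9 were below 0, beside 44.7% of all genes. Under TMM factors the split of all genes past the fold within regions moved from 177 lower and 196 higher to 283 lower and 116 higher, and the count of the 9 genes stayed at 0. Beside *Nf1*, the interval of *Rasa3* then lay below 0 (-0.12, -0.25 to -0.00) and that of *Nras* held 0 (0.06, -0.09 to 0.22). Relative to the median of all genes, *Rasa3* was at -0.04 under either scaling. The share of all genes with an interval below 0 under TMM factors is not given, so these intervals are not read as results about the genes.

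**Figure D4:**
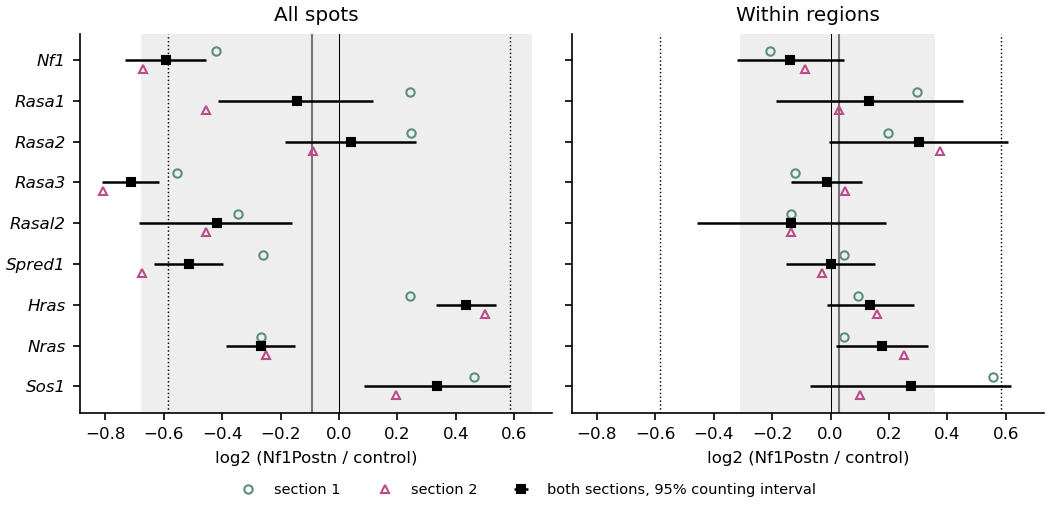
Log2 ratio of *Nf1*Postn over control for the 9 genes over all spots (left) and within regions (right), pooled with 95% counting intervals (squares) and per section (circles and triangles). The gray line is the median of the 11851 genes compared, the gray band holds their middle 80%, and the dotted lines mark 1.5-fold. *Nf1* lies at -0.59 on the left and at -0.14 on the right, and *Rasa3* and *Spred1* lie near 0 on the right.

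As a further description, the control level of each region was kept and weighted by the *Nf1*Postn callus's share of UMIs per region. For *Nf1* this gave a log2 ratio of -0.38, where the 11 regions together gave -0.57. For *Rasa3* it gave -0.55 where -0.68 was observed, for *Spred1* -0.39 where -0.48 was observed, and for *Hras* 0.26 where 0.42 was observed. For *Nras* this weighting gave -0.37 and the observed ratio was -0.26, with 0 control UMIs in region 10. *Rasa2* differed most between the 2 values, at -0.40 and 0.07, with 0 control UMIs in regions 5 and 10. The weighted values have no interval and rest in part on few control UMIs. For *Nf1* these were 18, 12 and 2 UMIs in regions 2, 5 and 10. The part of makeup in the ratios was not tested.

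Each region held few UMIs of most of the 9 genes. Of 99 pairs of gene and region, 46 had at least 20 UMIs in each genotype. Their log2 ratios ran from -0.85 to 0.75 with a median of 0.06, and 20 were below 0 and 26 above 0. The interval excluded 0 in 1 pair in each direction.

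The pair below 0 was *Rasa3* in region 9, at 158 CPM in control and 87.7 CPM in *Nf1*Postn (log2 ratio -0.85, -1.63 to -0.09, with -0.99 and -0.74 by section). In that region 3.34% of all genes had an interval below 0. The top 10 genes of region 9 held 3 tendon markers (*Angptl7*, *Cilp2* and *Thbs4*) and 2 bone markers (*Mepe* and *Sost*). The pair above 0 was *Hras* in the *Myh7* region 2, at 114 CPM in control and 162 CPM in *Nf1*Postn (0.50, 0.12 to 0.91, with 0.44 and 0.58), where 4.53% of all genes had one above 0. By section, the *Hras* UMIs of region 2 were 54 and 8 in control and 30 and 391 in *Nf1*Postn. The pooled interval thus mostly sets control spots of section 1 against *Nf1*Postn spots of section 2, and no interval is given per section. Over all 99 pairs the interval excluded 0 in 3 pairs below and 2 above, which adds *Rasa3* in region 10 (5 control UMIs), *Rasal2* in region 8 (14 *Nf1*Postn UMIs) and *Rasa2* in region 5. The shares of all genes with an interval on that side were 2.50%, 6.52% and 2.47%. In region 5, *Rasa2* had 0 control UMIs, with an exact upper limit of 22.2 CPM (18.1 CPM by the floor of 3 UMIs). In *Nf1*Postn it measured 26.1 CPM (17.7 to 37.0), and the lower limit of the log2 ratio was 0.14.

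**Figure D5:**
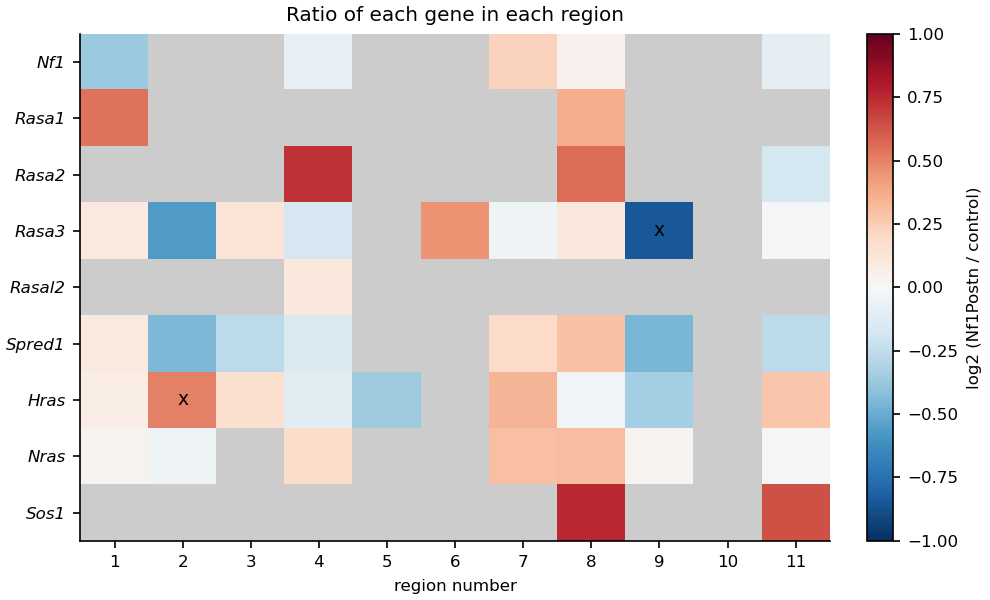
Log2 ratio of *Nf1*Postn over control (color) for the 9 genes in the 11 compared regions, for the 46 pairs with at least 20 UMIs in each genotype. Gray pairs had fewer. Crosses mark the 2 pairs whose 95% counting interval, pooled over the sections, excludes 0, *Rasa3* in region 9 and *Hras* in region 2. For *Hras* in region 2, most control UMIs lay in section 1 and most *Nf1*Postn UMIs in section 2. Every gene shown in 3 or more regions lies above 0 in some and below 0 in others.

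The levels of the 9 genes across regions differed in pattern. In control, *Rasa3* ran from 217 CPM in the osteoclast-gene region 3 to 55.3 CPM in the *Myh7* region 2, leaving out region 10 with its 5 UMIs. *Spred1* ran, with the same region left out, from 156 CPM in region 4, led by *Mepe* and *Bglap*, to 44.2 CPM in region 2. *Hras* had another order, from 166 CPM in region 9, 139 CPM in region 5 and 114 CPM in region 2 to 69.4 CPM in the cartilage-gene region 6. In *Nf1*Postn, region 2 was again lowest for *Rasa3* (37.3 CPM) and *Spred1* (32.3 CPM) among the 11 compared regions and highest for *Hras* (162 CPM).

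Genes were then ranked by how alike their log2(CPM + 1) was to that of *Nf1* over 40 units of region, genotype and section with at least 20 spots, 20 of each genotype. Among 3494 genes with at least 2000 UMIs, the 5 most alike were *Fndc3b* (Pearson's r = 0.79), *Colgalt1*, a collagen glycosyltransferase gene (0.79), *Bgn*, the matrix proteoglycan biglycan (0.79), *Smim14* (0.78) and *Nrbp2* (0.78). *Rasa3* (0.71) and *Spred1* (0.69) were above the 95th percentile of these 3494 genes, which was 0.67, and *Hras* (-0.65) was below the 5th, which was -0.61.

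The other genes lay between, with *Rasa1* at 0.25, *Rasal2* at 0.11, *Rasa2* at -0.08, *Nras* at -0.11 and *Sos1* at -0.36, beside a median of 0.09. *Rasa1*, *Rasal2*, *Rasa2* and *Sos1* had 633, 714, 823 and 618 UMIs, fewer than the 2000 asked of the genes behind that median and the percentiles. Their r is thus not on a like footing with those genes. Within the 20 control units alone, r was 0.55 for *Rasa3*, 0.59 for *Spred1* and -0.59 for *Hras*, and within the 20 *Nf1*Postn units 0.78, 0.72 and -0.72. For the other genes the 2 genotypes differed more, with *Nras* at -0.27 in control and 0.66 in *Nf1*Postn, *Rasal2* at -0.24 and 0.63, *Sos1* at -0.53 and 0.18, *Rasa1* at 0.42 and 0.07, and *Rasa2* at -0.05 and 0.34. The units share 2 libraries, 2 calluses and their makeup, and those with low counts are noisy, so these values are descriptions.

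As the *Postn* promoter drove Cre, the genes were also read by the *Postn* level of the spots. *Postn* encodes periostin, a matrix protein of periosteum and fibrous tissue, and its mRNA at harvest does not trace the cells in which Cre had acted. The spots of both calluses were put into 3 bins of equal size, parted at 215 and 712 CPM of *Postn*. *Nf1* measured 86.5, 87.4 and 78.9 CPM in the lowest, middle and highest bin in control, and 42.4, 53.9 and 73.3 CPM in *Nf1*Postn.

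The log2 ratio of *Nf1* was thus -1.03 (-1.31 to -0.75), -0.70 (-0.94 to -0.46) and -0.11 (-0.33 to 0.12), farthest from 0 in the lowest bin. It was -0.87, -0.43 and -0.12 in section 1 and -0.99, -0.80 and -0.10 in section 2. *Rasa3* had the same order, at -1.43, -0.66 and -0.19, and so had *Spred1*, at -1.27, -0.64 and 0.14. The median of all genes is not given for the bins, so an order shared with *Nf1* is not read as a result about any of the 9 genes.

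*Nras* (-0.53, -0.31 and 0.06) followed that order too over all spots. Within regions it measured 0.26 (-0.30 to 0.81), 0.08 (-0.20 to 0.37) and 0.20 (-0.04 to 0.43) in the 3 bins. All these intervals held 0, and section 1 lay below 0 in the middle and highest bins (-0.16 and -0.009). *Hras* measured 0.64, 0.45 and 0.19. These values were ordered the same way in section 2 (0.62, 0.56 and 0.19) but not in section 1 (0.59, -0.06 and 0.20). For *Rasa1*, *Rasa2*, *Rasal2* and *Sos1* over the 3 bins, 3 intervals excluded 0. No share of all genes is given for the bins, so this count is not read as a result about these genes. In the highest bin *Rasa2* measured 0.53 (0.17 to 0.88) and *Rasal2* -0.54 (-1.04 to -0.08). In the lowest bin *Sos1* measured 0.55 (0.05 to 1.06). Within regions these were 0.52 (0.08 to 0.96), -0.39 (-0.89 to 0.11) and -0.49 (-1.64 to 0.65).

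The genotypes were not matched for *Postn* in the lowest bin. There it measured 95.8 CPM in control (432 UMIs over 784 spots) and 26.5 CPM in *Nf1*Postn (93 UMIs over 1341 spots). Most *Nf1*Postn spots of that bin thus had no *Postn* UMI, and low depth can place a spot there. The bins also differed in makeup between the genotypes. In the lowest bin, 49.4% of control UMIs came from the osteoclast-gene region 3 and 48.3% of *Nf1*Postn UMIs from the *Myh7* region 2. In the highest bin, 58.9% of control UMIs came from region 1, and 23.3% of *Nf1*Postn UMIs from region 8 and 17.6% from region 1. Within regions, the ratios of *Nf1* in the 3 bins were -0.37 (-0.97 to 0.23), -0.37 (-0.71 to -0.02) and -0.02 (-0.29 to 0.25), those of *Rasa3* -0.53 (-0.99 to -0.07, with -0.19 in section 1 and -1.35 in section 2), -0.00 (-0.23 to 0.22) and 0.01 (-0.17 to 0.19), and those of *Spred1* -0.17 (-0.62 to 0.27), -0.07 (-0.35 to 0.21) and 0.14 (-0.09 to 0.36).

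The 9 genes belong to a list of 67 genes of the Ras pathway, all of which could be compared. Over all spots, 5 of the 67 were lower past 1.5-fold in each section and 3 were higher, beside 6.37% and 8.2% of all genes, and the median ratio was -0.11 beside -0.09 for all genes. Within regions, 0 were past the fold in either direction, and the median was 0.02 beside 0.03. The median within regions was 0.06 for the 10 Ras GAP genes, 0.08 for the 7 genes of neurofibromin partners and Ras-Raf inhibitors, -0.08 for the 6 Ras genes, -0.00 for the 8 exchange factors, 0.07 for the 7 adaptors, 0.05 for the 14 effectors and kinases, -0.05 for the 7 Ras processing genes and 0.21 for the 8 ERK response genes.

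The 8 list genes past the fold over all spots are named here after their values were seen. The lower ones were *Mras*, a Ras-related GTPase (log2 ratio -1.21), *Shoc2*, which works with MRAS in RAF activation (-0.63), the exchange factor *Rasgrp1* (-0.92), the Ras palmitoyltransferase *Zdhhc9* (-1.05) and the ERK response gene *Ier3* (-0.93). The higher ones were the ERK pathway inhibitor *Spry2* (0.72), the exchange factor *Rasgrp3* (1.05) and the RAF scaffold *Ksr1* (1.26).

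Within regions, *Mras* was at -0.70 (-0.96 to -0.45, with -1.10 and -0.47 by section), *Shoc2* at -0.45 (-0.78 to -0.13) and *Ksr1* at 0.11 (-0.02 to 0.24). *Rasgrp1* was at -0.80 (-1.62 to 0.03), *Zdhhc9* at -0.32 (-0.69 to 0.05), *Spry2* at 0.40 (0.11 to 0.68) and *Rasgrp3* at 0.30 (-0.18 to 0.78). Of the ERK response genes, which were also named with their values seen, *Egr1* was at 0.54 (0.40 to 0.67) and *Etv4* at 0.62 (0.28 to 0.97), and *Ier3* was at -0.53 (-0.77 to -0.28). *Etv4* measured 1.18 and 0.32 by section, and over all spots its sections ran opposite ways (1.06 and -0.27). *Dusp6* was at 0.29 (0.15 to 0.43), *Etv5* at 0.25 (0.03 to 0.47) and *Phlda1* at 0.18 (-0.15 to 0.51). *Dusp4* was at 0.01 (-0.20 to 0.22) and *Fos* at -0.11 (-0.30 to 0.08). The intervals of 4 of the 8 ERK response genes lay above 0 and of 1 below 0, beside 15% and 11.2% of all genes.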

How the data were processed

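Per the labels and the methods, the authors measured 2 sections of 1 block with 10x Genomics Visium probes for fixed mouse tissue and processed the reads with Space Ranger 1.3.0 (submitters' processing notes) on mm39, and exported tables from Partek Flow. The deposited tables hold UMIs per gene and spot without normalization. As the authors deposited 10 rows with joined identifiers that were not whole, the tables were treated like estimated counts, and were rounded where an interval needed whole counts. Deposited too were a genotype per spot and spot positions. 5 of 6380 spots had no genotype and were left out, as was a row without a gene name (6.8e-05% and 3.8e-05% of UMIs). Of 8586 genes with the start of the annotation, the tables' end lay 1 base past its end in 5415 and equaled it in 116, so 1 was subtracted.

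CPM were summed over the spots of a genotype. Intervals were exact Poisson for levels, exact conditional binomial for ratios, and Greenland-Robins for the Mantel-Haenszel ratio (scipy 1.17.1). Genes were compared if 0.3% or more of the spots had a UMI and each section 50 or more UMIs. For regions, log2(CPM + 1) was centered per section, reduced to 20 principal components, linked to 15 nearest neighbors and split by Leiden clustering (leidenalg 0.10.2, resolution 0.5). Leading genes, of those with 500 or more UMIs, had the highest CPM ratio to the rest of the spots. Depth ranged from 3462224 to 13562254 UMIs per callus and section. Intervals and floors (3 UMIs) cover counting error only.

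On simulated data, 200 of 11851 genes were changed within regions. The rule of 1.5-fold in each section called 29.6% of those changed 1.5-fold, 89.4% of those changed 2-fold, 96.8% of those changed 3-fold and 0.412% of unchanged genes. The simulated counts held Poisson counting error only, with no spread between mice and no difference in makeup within a region. The 0.412% is thus not the rate of false calls in these data.

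Named by rule were the 9 genes, list genes past the fold within regions (0 genes), leading genes, markers, and the 5 genes most like *Nf1*. The 8 list genes past the fold over all spots and the other ERK response genes were named after their values were seen. The genes, lists and comparisons were chosen with earlier results of these data known. Added after values had been seen were the ratio from weighted control levels and the *Postn* bins within regions. So was the order of *Nf1* over regions with at least 15 control UMIs. Alternatives were a section left out, TMM factors (edgeR 4.0.16), the mean of log2(CPM + 1), a depth minimum and thinning to 1000 UMIs, other folds, filters, resolutions and strata, all genes in the clustering, and 2 bins of *Postn*. No cell type was assigned to spots, and the authors' supplementary values were not used here.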

Additional observations from a re-analysis of the deposited data

Results flagged for a closer look

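*Rasa3* ran opposite ways in 2 regions, the same way in both sections of each. Of the 9 regions that could be followed in both sections, *Rasa3* was lower in both in 4, higher in both in 1 and opposite in 4. In region 4, led by *Mepe* and *Bglap*, its log2 ratio of *Nf1*Postn over control was -0.17 (-0.26 and -0.15 by section), and in region 1, led by *Fbn2* and *Sfrp2*, it was 0.10 (0.03 and 0.15). Both counting intervals held 0 (-0.50 to 0.16 and -0.16 to 0.34), and the difference between the regions was not tested.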

How the results depend on the processing

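Over all spots the log2 ratio of *Nf1* stayed below 0 in all 6 alternatives run. It was -0.67 without section 1, -0.42 without section 2 and -0.71 under TMM factors, and it was -1.84 by the mean of log2(CPM + 1) over spots, on which the median of all genes was also lower, at -0.56. The number of the 9 genes past 1.5-fold, 0 in the report, became 2 (*Nf1* and *Rasa3*) under TMM factors and 4 (with *Spred1* and *Nras*) by that mean. It was 3 (*Nf1*, *Rasa3* and *Spred1*) without section 1 and 0 without section 2, where 1 section alone had to pass. By that mean *Hras* (-0.73) and *Sos1* (-0.30) turned below 0. The cause of these shifts was not tested. Within regions *Nf1* ran from -0.26 (TMM factors) to -0.09 (without section 1), and 0 genes passed in any of the 9 alternatives run. Of the values for the other genes, single regions and *Postn* bins, 39 moved by more than their counting error and 265 did not. The other 2 turned (*Hras* and *Sos1* above), from ratios whose counting intervals had excluded 0. Values whose interval held 0 could change sign without being among these 2. *Rasa1* over all spots went from -0.14 to 0.24 without section 2, and *Nf1* in region 7 from 0.23 to -0.20. Counts over all genes moved more: over all spots, from 755 lower and 972 higher to 4633 and 106 by that mean, 2585 and 1305 without section 1 and 946 and 1705 without section 2, and within regions, from 177 and 196 to 510 and 612 without section 1 and 693 and 746 without section 2. Each section held both genotypes, so the ratios by section and the strata compare them within a section, and no test was run. Depth limits *Rasa1*, *Rasa2*, *Rasal2* and *Sos1*, with at most 226 *Nf1*Postn UMIs each.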
